A study of Mus musculus with 24 samples.

Results

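The comparison described here is the first 3 days of differentiation in mouse embryonic stem cells (ESCs) that lack Eed. The members are the 4 expression arrays of Eed knockout (KO) embryoid bodies on day 3 and the 4 arrays of the undifferentiated KO cells on day 0, 8 of the 24 arrays of the series. They were taken from the labelled genotype and day, and the change was computed within each cell line. Each group holds 2 arrays of the line E14 and 2 of the line J1. The labels name 1 Eed KO line of each background, so each line stands for 1 clone. Day 7 arrays of the same KO lines, and arrays of wild-type (WT) J1 and V6.5 cells on days 0, 3 and 7, complete the series, and the WT arrays of day 3 and day 0 are used below as a comparison.

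Day 0 cells grew with LIF-conditioned medium and serum on mitomycin-inactivated mouse embryonic fibroblasts, called feeders. For the day 3 samples, feeder-depleted cells were set up in hanging drops in serum medium without LIF, then moved to suspension, and form embryoid bodies, aggregates in which ESCs differentiate. The labels give embryonic stem cells as the cell type on each day and do not say whether day 0 RNA came from feeder-depleted cells. The change from day 0 to day 3 therefore joins time, LIF withdrawal, aggregation and removal of feeders, which cannot be told apart. Whether repeat arrays stand for separate cultures is also not stated in the labels, so their scatter may be technical. For the KO and WT changes and their difference, p-values measure only scatter between repeat arrays and between a genotype's lines in their change. For a line alone and for the difference between lines, they measure only scatter between repeat arrays.

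EED is the scaffold and histone-reading subunit of PRC2, a Polycomb complex whose histone methylation holds developmental genes silent. ESCs in serum and LIF keep a naive state through transcription factors such as KLF4, ESRRB and TBX3, and LIF acts on this network through its receptor and the transcription factor STAT3. When LIF is withdrawn, cells leave the naive state, pass through a formative state marked by genes such as Fgf5 and Otx2, and only then enter germ layers. The title of the series names the question, a role of EED in silencing pluripotency genes on differentiation.

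All values are log2 expression values of the Affymetrix Mouse Gene 1.0 ST array as deposited, so a difference of 1 is a 2-fold difference. Levels of different probe sets are not compared with each other. The 2 arrays of a KO line and day correlated at r = 0.9905 to 0.9949 across 19938 genes on days 0 and 3, with 22 to 76 genes at least 2-fold apart. The WT J1 day 7 pair stood apart (r = 0.9619, 1256 genes at least 2-fold apart). That pair is in no comparison below but shares the estimate of the spread, and leaving it out kept all 239 KO calls. Eed itself (probe set 10565486) measured 5.76 and 6.97 in E14 and 6.21 and 6.42 in J1 on day 3, against 7.44 and 7.48 in E14 and 7.19 and 7.06 in J1 on day 0, while the WT means were 10.03 on day 3 and 10.73 on day 0.

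Within 3 days, 239 genes changed in the KO lines, 1.2% of the 19938 tested. Of these, 116 rose (0.582%) and 123 fell (0.617%). The counts of list members below are set against these shares. A gene was called when its limma p, adjusted by the Benjamini-Hochberg method over all genes, was under 0.05 and its change at least 2-fold. Without the 2-fold minimum, 1546 genes (7.75%) passed, 756 higher and 790 lower on day 3. The calls were moderate in size, with a median of 1.24 among rises and −1.32 among falls, and 6 rises and 16 falls reached 4-fold. The largest rise was Prtg (2.36, 5.14-fold higher) and the largest fall Postn (−2.94, 7.68-fold lower).

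The 2 lines moved alike in direction. All 239 called genes had the same sign in E14 and J1, against 69.9% of all genes, and this share is in part fixed by the call itself. Day 3 and day 0 arrays did not overlap within either line for 114 of the 116 rises and 122 of the 123 falls. These counts too are in part fixed by the call, and the share of all genes was not computed for them. Over the 4 arrays of each day together, 112 rises and 113 falls did not overlap, where 7.07% of all genes lay higher and 6.18% lower in every day 3 array. Changes in E14 and J1 correlated at r = 0.72 across genes, a description of 2 lines whose genes are not independent. Tested alone, E14 gave 282 called genes (1.41%) and J1 181 (0.908%). The change was the larger one in E14 for 88 of the 116 rises and 68 of the 123 falls. The difference of the 2 changes was called for 0 genes (0.0%, smallest adjusted p = 0.907), with 457 genes (2.29%) at an unadjusted p under 0.05, and for 2 genes without E14 day 0 replicate 1. No gene is given below as changing in 1 line only.

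**Figure D1:**
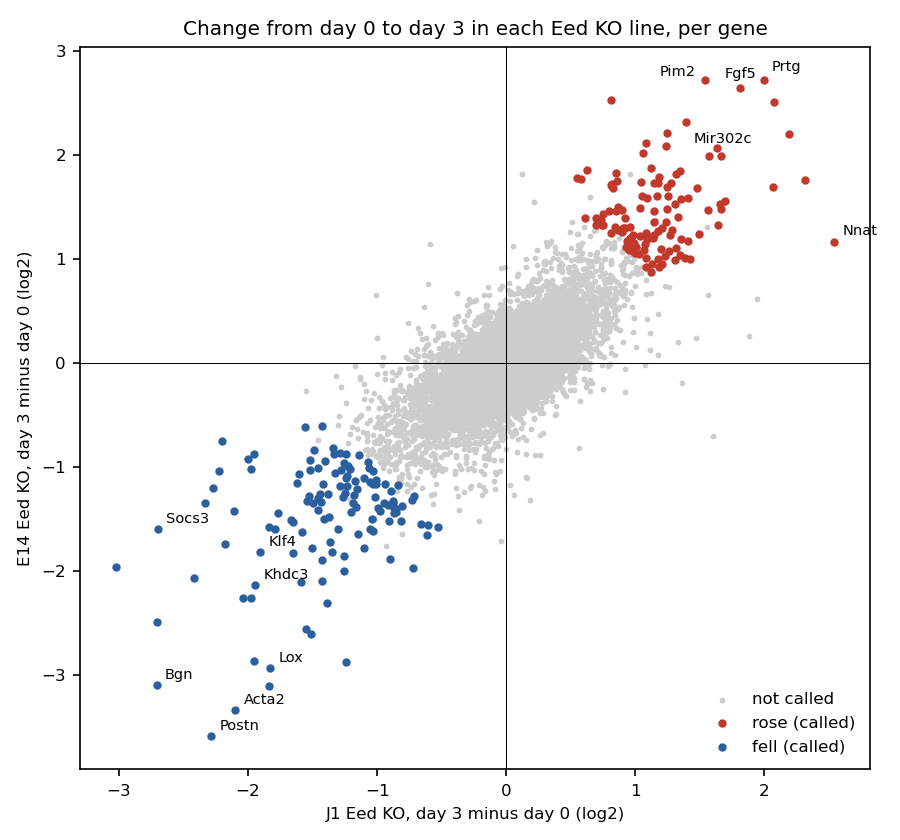
Change from day 0 to day 3 (log2) of each of the 19938 genes in E14 Eed KO (vertical) and J1 Eed KO (horizontal). Red points are the 116 genes that rose, blue points the 123 that fell, and grey points all others, and every coloured point lies at the upper right or lower left of the origin.

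Naive pluripotency genes fell. Of 21 measured members of the naive list, 7 fell and 0 rose, 12 passed the adjusted p without the fold minimum, and 20 had a change below 0. Of all 19938 genes, 0.617% fell, 7.75% passed without the fold minimum, and 8810 had a change below 0. The median change of the list was −0.85, against 0.025 over all genes. The 7 were Klf4, Fbxo15, Mras, Esrrb, Jam2, Tbx3 and Tet2.

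Klf4, a transcription factor of the naive network and a target of STAT3, measured 9.38 and 9.78 in E14 and 8.35 and 8.82 in J1 on day 3, against 11.32 and 11.48 in E14 and 10.47 and 10.50 in J1 on day 0. All day 3 arrays lay below all day 0 arrays, and J1 lay below E14 on both days. Klf4 fell by 1.86 (SE 0.242, adjusted p = 3.99e-05). Fbxo15, an F-box gene used as a marker of undifferentiated ESCs, read 9.42, 9.89, 9.18 and 9.84 on day 3, against 10.97, 11.00, 11.08 and 11.02 on day 0, with the E14 arrays first. The day 0 arrays were nearly equal and the day 3 arrays spread more widely, again without overlap, and Fbxo15 fell by 1.43 (SE 0.286, adjusted p = 0.00255). Esrrb, an orphan nuclear receptor of the naive network, read 10.49, 10.60, 9.69 and 10.36 on day 3, against 11.45, 11.62, 11.23 and 11.27 on day 0, a fall of 1.11 (SE 0.287, adjusted p = 0.0182). Its lowest array was the first J1 array of day 3. Tbx3, a T-box transcription factor, averaged 9.06 ± 0.46 on day 3 and 10.13 ± 0.62 on day 0 (SD, n = 4 each) and fell by 1.06 (SE 0.159, adjusted p = 0.00018).

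Mras, a RAS-family GTPase, fell by 1.35 (SE 0.289, adjusted p = 0.00456), with changes of −1.98 in E14 and −0.72 in J1, and its day 3 and day 0 arrays overlapped between lines but not within a line. Jam2, a junctional adhesion gene, fell by 1.10 (SE 0.335, adjusted p = 0.0456). Tet2, which oxidises methylated cytosine, read 8.70, 9.63, 8.45 and 9.0 on day 3, against 10.02, 10.08, 9.79 and 9.94 on day 0, and fell by 1.01 (SE 0.187, adjusted p = 0.00131). Tet2 was also the 1 call, a fall, among 11 measured genes of DNA methylation and its removal, where 1.2% of all genes were called. That 1 call does not set the list apart, and Dnmt3b of that list is given below. Some of these calls were narrow. With the arrays of a line and day averaged, Mras (adjusted p = 0.124), Esrrb (0.0829) and Jam2 (0.16) were not called. Jam2 lost its call without any 1 of the 8 KO arrays (adjusted p 0.054 to 0.144). Esrrb lost it without J1 day 3 replicate 1 (adjusted p = 0.0929) or E14 day 0 replicate 2 (adjusted p = 0.055). Tbx3 fell just short of 2-fold without E14 day 3 replicate 1 (−0.98), and Tet2 without E14 day 3 replicate 1 (−0.87), J1 day 3 replicate 1 (−0.87) or J1 day 0 replicate 2 (−0.97).

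Other naive genes were lower on day 3 without a call. Zfp42, which encodes the ESC marker REX1, read 9.88, 10.34, 9.75 and 9.88 on day 3, against 11.17, 11.12, 10.93 and 11.14 on day 0. Its arrays did not overlap and its change was −1.13 (SE 0.357), but the adjusted p was 0.0563. It was called with only the 8 KO arrays (adjusted p = 5.33e-05), from clone-by-day means (0.0438), with genes of a mean under 6 removed (0.0485) and without the WT J1 day 7 arrays (0.0437). Klf2, a further KLF factor, changed by −0.46 (SE 0.228, adjusted p = 0.267), and Nr0b1, which encodes the nuclear receptor DAX1, by −0.48 (SE 0.349, adjusted p = 0.495).

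None of the core factors was called. Pou5f1, which encodes OCT4, read 12.40, 12.37, 12.27 and 12.40 on day 3, against 12.41, 12.34, 12.30 and 12.51 on day 0. The arrays of the 2 days were interleaved, and the difference was −0.03 (SE 0.149). Nanog changed by −0.36 (SE 0.254, adjusted p = 0.478) and Sox2 by −0.31 (SE 0.356, adjusted p = 0.708), with day 3 and day 0 arrays of Nanog overlapping between lines. Of 19 measured core pluripotency genes 0 were called, where 1.2% of all genes were, and the median change of the list was −0.30. The largest changes in that list were those of Zfp57, a guardian of imprints, at −0.77 (SE 0.126, adjusted p = 0.000388, under 2-fold), and of Dnmt3l, a cofactor of DNA methylation, at −0.53 (SE 0.264, adjusted p = 0.275).

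Genes of LIF signalling fell as well. In the LIF and STAT3 list, 5 of 18 measured members fell and 0 rose, with a median of −0.57, where 0.617% of all genes fell. Socs3, the feedback inhibitor that STAT3 induces, read 8.61, 8.33, 7.99 and 8.11 on day 3, against 10.04, 10.10, 10.87 and 10.62 on day 0. The day 3 and day 0 arrays were well apart, and Socs3 fell by 2.15 (SE 0.202, adjusted p = 2e-06), 4.43-fold lower. Osmr, the oncostatin M receptor, which shares the signalling chain of the LIF receptor, read 5.80, 6.28, 5.91 and 5.87 on day 3, against 7.92, 7.42, 7.74 and 7.20 on day 0, and fell by 1.61 (SE 0.171, adjusted p = 5.24e-06). Stat3 itself read 9.21, 9.54, 8.88 and 9.17 on day 3, against 10.38, 10.44, 10.33 and 10.27 on day 0, and fell by 1.15 (SE 0.16, adjusted p = 7.72e-05). None of these 3 genes had overlapping arrays. Bcl3, an I-kappa-B family gene, fell by 1.17 (SE 0.167, adjusted p = 0.000107). Klf4 is the fifth member, also counted in the naive list.

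The promoter of Socs3 is shown because this gene had the largest fall of the list and its promoter holds a STAT-type motif. The motif searched was TTCNNNGAA, which reads the same on both strands. It was looked for in the RefSeq table (GRCm38.p6) of promoter windows, 250 bases before to 50 after each gene's start. The 250 bases before the start of Socs3, minus strand, chr11:117969367-117969616, follow, with the motif in capitals.
Socs3 promoter: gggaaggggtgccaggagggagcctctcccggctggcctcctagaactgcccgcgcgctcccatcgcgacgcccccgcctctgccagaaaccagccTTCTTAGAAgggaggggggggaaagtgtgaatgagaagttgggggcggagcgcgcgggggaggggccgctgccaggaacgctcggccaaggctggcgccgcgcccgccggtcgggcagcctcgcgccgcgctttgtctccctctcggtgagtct
The motif TTCTTAGAA begins 154 bases before the start. Of all 32851 windows 8.3% held the motif, as did 8.99% of the windows of the 15614 tested genes that have one. It was in 11 of 87 windows of genes that fell (12.6%) and 6 of 79 windows of genes that rose (7.59%). Among the 5 LIF list members that fell, the Socs3 window alone held it, which says nothing on sites outside these windows.

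**Figure D2:**
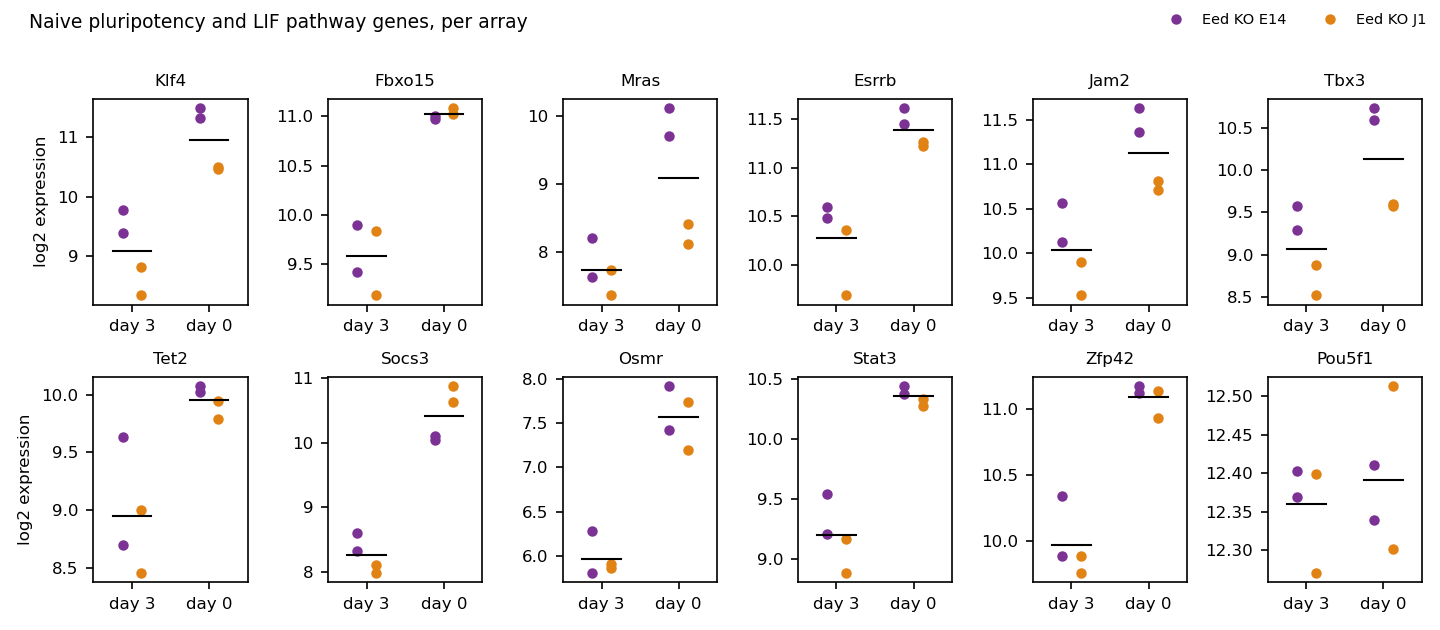
Log2 expression in each Eed KO array on day 3 and day 0 for 10 genes of the naive and LIF lists that fell, among them Klf4, Socs3 and Stat3, beside Zfp42 and Pou5f1, which were not called. Points are arrays, purple for E14 and orange for J1, lines are means of 4 arrays, and each panel has its own scale, which does not start at 0. Day 3 points lie below day 0 points in all panels except Mras, where the lines overlap, and Pou5f1.

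Genes of the formative state rose. In the formative and primed epiblast list, 4 of 26 measured members rose and 0 fell, with a median of 0.46 and 8 changes below 0 (the lowest −0.94). Of all 19938 genes, 0.582% rose and 8810 had a change below 0. Fgf5, the growth factor that marks this state, measured 10.41 and 10.66 in E14 and 10.29 and 10.05 in J1 on day 3, against 7.92 and 7.87 in E14 and 8.44 and 8.28 in J1 on day 0. The 2 days were well apart in both lines, and Fgf5 rose by 2.23 (SE 0.3, adjusted p = 5.55e-05), 4.68-fold. Pim2, a serine and threonine kinase, read 10.93, 10.88, 10.92 and 11.16 on day 3, against 8.20, 8.17, 9.15 and 9.84 on day 0. Its day 3 arrays were close together and its day 0 arrays were lower in E14 than in J1, so the rise of 2.13 (SE 0.273, adjusted p = 3.54e-05) was 2.72 in E14 and 1.54 in J1. Sall2, a zinc finger transcription factor, rose by 1.49 (SE 0.261, adjusted p = 0.000797). Sox11, an HMG-box transcription factor, rose by 1.18 (SE 0.238, adjusted p = 0.00278) and was under 2-fold without E14 day 0 replicate 2 (0.94).

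Otx2, a homeobox gene that drives the exit from the naive state, read 10.89, 10.67, 10.97 and 11.25 on day 3, against 10.28, 9.83, 10.97 and 10.83 on day 0. The arrays overlapped, since J1 was already at the day 3 level of E14 on day 0, and the change was 0.47 (SE 0.547, adjusted p = 0.712). Dnmt3b, the DNA methyltransferase of the formative epiblast, changed by 0.97 (SE 0.209, adjusted p = 0.00456), just under 2-fold, with no overlap between days. It passed without E14 day 0 replicate 1, J1 day 0 replicate 1 or 2, or J1 day 3 replicate 1 or 2 (changes of 1.00 to 1.02), in E14 alone (1.18) and after renewed quantile normalization (1.01).

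The other protein-coding genes among the 12 largest rises were Prtg, Kctd12b, St6gal2, Klhl4, Calcr, Gabra3 and Mmp25, with the imprinted gene Nnat described below. Prtg, a cell surface receptor of the immunoglobulin superfamily, measured 10.19 and 10.55 in E14 and 9.93 and 10.36 in J1 on day 3, against 7.46 and 7.83 in E14 and 8.06 and 8.23 in J1 on day 0, with no overlap (SE 0.262, adjusted p = 7.66e-06). Kctd12b, of the KCTD family, rose by 2.29 (SE 0.248, adjusted p = 5.45e-06), St6gal2, a sialyltransferase, by 2.20 (SE 0.332, adjusted p = 0.000182), and Klhl4, a kelch-like gene, by 2.04 (SE 0.446, adjusted p = 0.00523). Calcr, the calcitonin receptor, rose by 1.88 (SE 0.155, adjusted p = 3.95e-07), Gabra3, a subunit of the GABA-A receptor, by 1.85 (SE 0.194, adjusted p = 4.8e-06), and Mmp25, a membrane-bound metalloproteinase, by 1.78 (SE 0.186, adjusted p = 4.8e-06). Day 3 and day 0 arrays of these genes did not overlap. Klhl4 was not called when the arrays of a line and day were averaged (adjusted p = 0.117).

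Imprinted genes gave 2 calls among 25 measured, both rises, where 0.582% of all genes rose. Nnat, a paternally expressed gene, read 9.51, 9.56, 9.23 and 9.40 on day 3, against 8.22, 8.52, 6.52 and 7.03 on day 0. Day 3 arrays were alike in both lines while J1 was the lower line on day 0, and Nnat rose by 1.86 (SE 0.282, adjusted p = 0.000198), by 1.17 in E14 and 2.54 in J1. Peg3, a paternally expressed zinc finger gene, rose by 1.21 (SE 0.193, adjusted p = 0.000316). The FGF and ERK list had 2 rises among 20, Fgf5 and Il17rd, a feedback inhibitor of FGF signalling (1.19, SE 0.233, adjusted p = 0.00229). The neuroectoderm list had 1 rise among 22, Fabp7, a fatty acid binding protein of radial glia (1.58, SE 0.354, adjusted p = 0.00645), which was not called with clone as a random block (adjusted p = 0.0624).

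Genes of 3 microRNA clusters rose. Probe sets of 298 microRNA genes were measured, and 12 rose (4.03%) and 0 fell, where 0.582% of all genes rose and 0.617% fell. Such probe sets can read the primary transcript as well as the hairpin, so the values are not levels of mature microRNAs. The Mir302 cluster on chromosome 3 lies within the Larp7 gene in the RefSeq table. The clusters Mir17 to Mir92 on chromosome 14 and Mir106a to Mir363 on chromosome X are paralogues of each other. The mature sequences from RefSeq (GRCm38.p6) are shown for hairpins that rose, to set their seeds side by side, with the seed (bases 2 to 8) in capitals. Mir302b was not called and is shown because the Mir302a 3-prime arm has no entry in the table.
mmu-miR-302b-3p: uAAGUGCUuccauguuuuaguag
mmu-miR-302d-3p: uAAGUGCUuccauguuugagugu
mmu-miR-302c-3p: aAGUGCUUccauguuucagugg
mmu-miR-17-5p: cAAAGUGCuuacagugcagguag
mmu-miR-20a-5p: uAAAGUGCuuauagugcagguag
mmu-miR-20b-5p: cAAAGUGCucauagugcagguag
mmu-miR-106a-5p: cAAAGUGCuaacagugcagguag
mmu-miR-18a-5p: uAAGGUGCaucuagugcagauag
mmu-miR-19b-3p: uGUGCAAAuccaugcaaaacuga
mmu-miR-363-3p: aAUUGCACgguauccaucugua
mmu-let-7d-5p: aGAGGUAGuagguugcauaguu
The printed arms of the Mir302 genes and of Mir17, Mir20a, Mir20b and Mir106a share the letters AAGUGC. An arm with AAGUGC within bases 1 to 9 was found in 6 of the 12 hairpins that rose, in 10 of the 271 measured microRNA genes of the table (3.69%) and in 19 of all 1058 (1.8%). The letters were read off hairpins that rose and lie in clusters, so these counts are a description only. The Mir302 arms lie at chr3:127545275-127545297 (miR-302b-3p), chr3:127545406-127545427 (miR-302c-3p) and chr3:127545665-127545687 (miR-302d-3p), plus strand. miR-19b-3p is made by hairpins of both paralogous clusters.

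Mir302c measured 5.97 and 6.98 in E14 and 5.81 and 5.79 in J1 on day 3, against 3.75 and 4.55 in E14 and 3.87 and 4.95 in J1 on day 0. All day 3 arrays lay above all day 0 arrays, but repeat arrays of a line were up to about 2-fold apart, and the rise was 1.86 (SE 0.541, adjusted p = 0.0367). Mir302a rose by 1.83 (SE 0.533, adjusted p = 0.0366) and Mir302d by 1.58 (SE 0.428, adjusted p = 0.0238), with changes of 1.39 (SE 0.511, adjusted p = 0.111) for Mir302b and 0.66 (SE 0.377, adjusted p = 0.363) for Mir367, and no overlap between days for any of the 5. Larp7, the host gene, changed by 0.04 (SE 0.14). The calls of this cluster were narrow. Leaving out 1 KO array at a time ended the call of Mir302c in 7 of 8 cases (adjusted p up to 0.127), of Mir302a in 5 (up to 0.122) and of Mir302d in 4 (up to 0.0804), with changes of 1.40 to 2.15. The cases that ended all 3 calls were those without E14 day 0 replicate 1, J1 day 0 replicate 1, J1 day 3 replicate 1 or E14 day 3 replicate 2. With a trended and robust variance, none of the 3 was called (adjusted p 0.0514 to 0.076).

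The members of the other clusters that were called rose by 1.02 to 1.54. Mir17, on chromosome 14, read 6.83, 7.51, 6.90 and 7.46 on day 3, against 5.93, 5.62, 6.01 and 5.67 on day 0. No arrays overlapped, and the rise was 1.37 (SE 0.222, adjusted p = 0.000377). Mir19b-1 rose by 1.5 (SE 0.261, adjusted p = 0.000725), Mir18 by 1.08 (SE 0.209) and Mir20a by 1.05 (SE 0.266), while Mir19a changed by 0.97 (SE 0.267) and the host transcript Mir17hg by 0.49 (SE 0.187, adjusted p = 0.13). On chromosome X, Mir363 rose by 1.54 (SE 0.426), Mir19b-2 by 1.40 (SE 0.271), Mir106a by 1.14 (SE 0.187) and Mir20b by 1.02 (SE 0.204). Mirlet7d, a let-7 hairpin on chromosome 13, also rose, by 1.09 (SE 0.23, adjusted p = 0.00391). The ESC microRNA list as a whole had 8 of 23 measured members called, all rises, with a median of 0.66, where 0.582% of all genes rose.

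**Figure D3:**
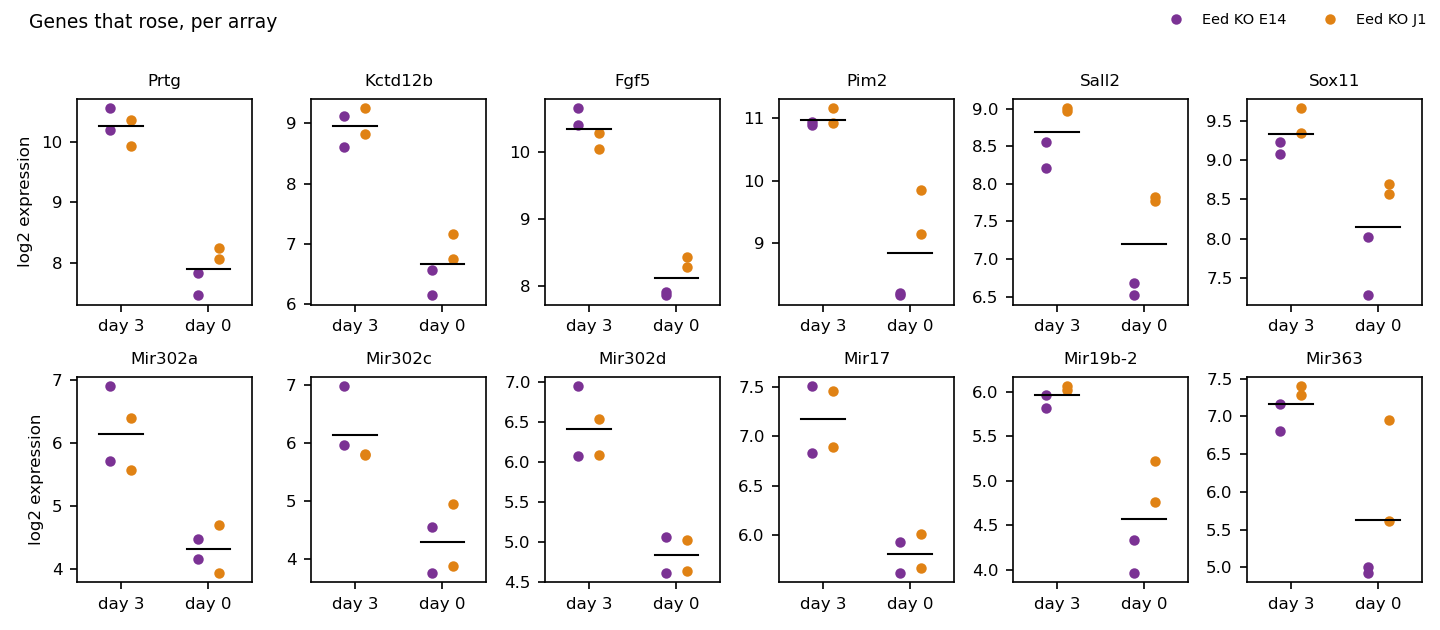
Log2 expression in each Eed KO array on day 3 and day 0 for 12 genes that rose: 6 protein-coding genes above and 6 microRNA hairpins below. Points are arrays, purple for E14 and orange for J1, lines are means of 4 arrays, and each panel has its own scale, which does not start at 0. Day 3 points lie above day 0 points in every panel except Mir363, whose second J1 array of day 0 (6.95) lies above the lowest day 3 array (6.81).

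The 12 largest falls included Postn, Bgn, Acta2, Cav1, Tnc, Igfbp7, Lox and S100a4, described here, and Socs3, Angptl7, Emp1 and Ptgs2, described above or below. Postn, a matrix protein of fibroblasts, measured 5.38 and 6.37 in E14 and 5.94 and 5.55 in J1 on day 3, against 8.42 and 10.52 in E14 and 8.27 and 7.79 in J1 on day 0. The E14 pair of day 0 lay far apart, and all day 3 arrays lay lower (−2.94, SE 0.636, adjusted p = 0.00489). Bgn, the proteoglycan biglycan, fell by 2.90 (SE 0.289, adjusted p = 3.29e-06). Acta2, smooth muscle actin, fell by 2.72 (SE 0.438, adjusted p = 0.000347), and Cav1, the caveolar coat protein, fell by 2.60 (SE 0.434, adjusted p = 0.000497). Tnc, the matrix protein tenascin C, fell by 2.48 (SE 0.517), Igfbp7, a secreted growth factor binding protein, fell by 2.41 (SE 0.353) and Lox, which crosslinks collagen, fell by 2.38 (SE 0.305). S100a4, a calcium binding protein of fibroblasts, fell by 2.15 (SE 0.192). Tnc was not called when the arrays of a line and day were averaged (adjusted p = 0.0714).

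Feeder fibroblasts express many of these genes. The fibroblast feeder list had 13 of 32 measured members fall and 0 rise, with a median of −0.80 and 29 changes below 0. Of all 19938 genes, 0.617% fell and 8810 had a change below 0. In bulk samples, fewer cells of a type and less RNA per cell cannot be told apart. The mean of the list was 7.22 and 7.37 in E14 and 7.31 and 7.27 in J1 on day 3, against 8.17 and 8.70 in E14 and 8.13 and 7.77 in J1 on day 0. Every day 0 array lay above every day 3 array, and the day 0 arrays spread more widely than the day 3 arrays. On day 7 the list mean in KO was higher again than on day 3, at 7.83 and 7.96 in E14 and 8.36 and 7.90 in J1. The source of this signal was not tested. Other fibroblast markers were not called: Col1a1 (−0.48, SE 0.254), Col1a2 (−0.53, SE 0.196), Col3a1 (−0.16, SE 0.267), Dcn (−1.04, SE 0.486) and Pdgfrb (−0.15, SE 0.294).

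The 2 day 0 arrays of each line differed in this list mean, which was the higher in E14 replicate 2 and J1 replicate 1. That array was picked by the list itself, so nothing is read from its members there. Outside the list, 2 of the 7 naive genes that fell (28.6%), 2 of the 5 LIF genes that fell (40.0%) and 32 of all 110 falls (29.1%) read higher in that array in both lines, against 30.2% of all genes. Without the list, 226 called genes were left, with 116 rises and 110 falls. Bgn, Cav1, Tnc and Igfbp7 are not in the list, although fibroblasts express them, and each also read higher in that array in both lines. For Cav1 the difference in E14 was only 0.03. Of the other largest falls outside the list, Socs3 read higher there in both lines (0.066 in E14, 0.246 in J1). Emp1 (−0.186 and −0.117) and Angptl7 (−2.568 and −0.487) read lower in both lines, and Ptgs2 was mixed (−0.169 and 0.028). The shares above count only signs, in 1 pair of arrays per line, and Klf4 is in both the naive and the LIF count. They are a description, and the part of feeder RNA in these falls was not tested.

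**Figure D4:**
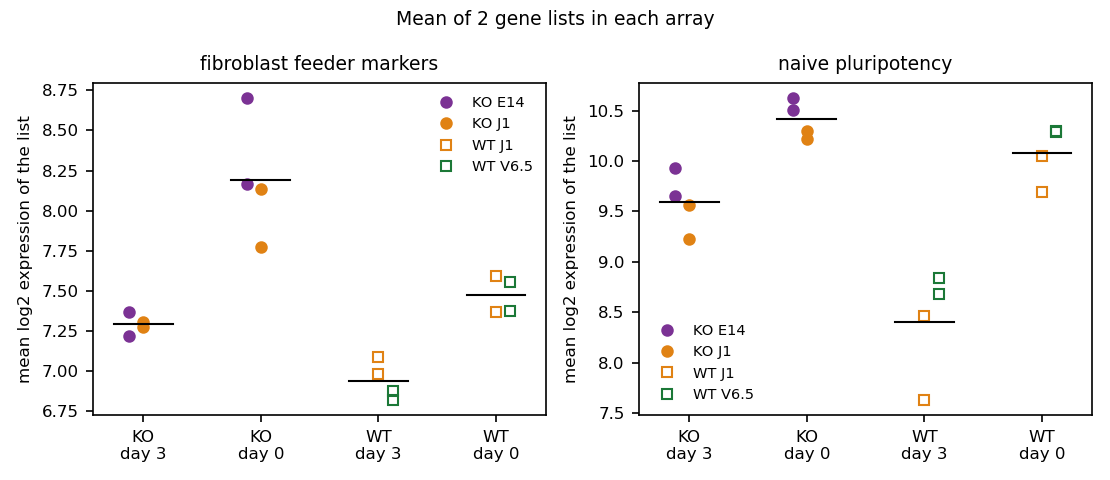
Mean log2 expression of the fibroblast feeder list (left, 32 genes) and the naive pluripotency list (right, 21 genes) in each array, for KO day 3, KO day 0, WT day 3 and WT day 0. Filled points are KO arrays and open squares WT arrays, coloured by line, lines are means of 4 arrays, and the axes do not start at 0. Feeder list means are highest in KO day 0 (7.77 to 8.70), and naive list means are lower on day 3 than on day 0 in both genotypes, with KO day 3 at 9.23 to 9.93 and WT day 3 at 7.63 to 8.84.

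Emp1, Angptl7 and Ptgs2 complete the largest falls. Emp1, a membrane protein of epithelia, read 9.29, 9.82, 8.77 and 9.25 on day 3, against 11.72, 11.54, 11.37 and 11.49 on day 0, and fell by 2.25 (SE 0.262, adjusted p = 1.28e-05). Its day 0 arrays were close together, unlike those of Postn. Ptgs2, the inducible cyclooxygenase, fell by 2.12 (SE 0.454, adjusted p = 0.00447). The chemokine gene Ccl2, a member of the fibroblast feeder list and counted among its falls, fell by 1.76 (SE 0.309, adjusted p = 0.000785). Angptl7, a secreted protein, read 6.19, 6.09, 6.11 and 6.02 on day 3, against 9.39, 6.82, 8.84 and 9.33 on day 0. The second E14 array of day 0 was far below the other 3 but above all day 3 arrays (−2.49, SE 0.341, adjusted p = 6.38e-05). Gpx2, a glutathione peroxidase, was the 1 call among 12 metallothionein and oxidative stress genes, a fall of 1.29 (SE 0.218, adjusted p = 0.000568). With 1.2% of all genes called, 1 call does not set a list of this size apart.

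Genes of the germline fell too. In the germline and meiosis list, 4 of 30 measured members fell and 0 rose, 12 passed the adjusted p without the fold minimum, and the median was −0.46. Of all genes, 0.617% fell and 7.75% passed without the fold minimum. Tex11, a meiotic recombination gene, read 5.29, 6.20, 5.55 and 5.76 on day 3, against 7.58, 7.19, 6.75 and 6.84 on day 0, and fell by 1.40 (SE 0.183, adjusted p = 4.56e-05). The arrays did not overlap. Tex19.1, which guards germ cells against retrotransposons, fell by 1.22 (SE 0.166, adjusted p = 6.21e-05) and Syce1, a synaptonemal complex gene, fell by 1.10 (SE 0.129, adjusted p = 1.38e-05). Smc1b, the meiotic cohesin subunit, fell by 1.14 (SE 0.189, adjusted p = 0.00046) with overlap between lines, and was under 2-fold without E14 day 3 replicate 1 (−0.89).

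The lists for primitive streak and early mesoderm (29 measured, median 0.098), definitive and visceral endoderm (29, median 0.067), blood and endothelium (21, median 0.16) and trophoblast (18, median 0.12) had 0 called genes. The only call among 20 cardiac and muscle genes was the fall of Acta2, which is also in the feeder list. With 1.2% of all genes called, 0 or 1 call does not set lists of this size apart. Mixl1, an early streak homeobox gene, read 7.29, 7.00, 7.34 and 7.15 on day 3, against 6.88, 6.71, 7.08 and 6.95 on day 0. The arrays overlapped between lines (0.29, SE 0.525). Cdx2 changed by 0.71 (SE 0.206, adjusted p = 0.0352) and Fgf8 by 0.70 (SE 0.2, adjusted p = 0.0342), the largest changes upward of the streak list and both under 2-fold.

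In the endoderm list, Ttr, the thyroid hormone carrier of visceral endoderm, measured 6.5 and 6.24 in E14 and 7.63 and 8.56 in J1 on day 3, against 6.25 and 5.97 in E14 and 6.54 and 5.87 in J1 on day 0. The J1 day 3 arrays stood above all others, and the change was 1.07 (SE 0.669, adjusted p = 0.413). Ttr was called with only the 16 arrays of days 3 and 0 (adjusted p = 0.0111) or only the 8 KO arrays (0.0338). Lrp2, an endocytic receptor, changed by 0.98 (SE 0.335, adjusted p = 0.0796). Krt8, a keratin of simple epithelia, read 10.10, 11.04, 11.41 and 11.13 on day 3, against 9.97, 9.87, 9.77 and 9.64 on day 0, without overlap (1.11, SE 0.356, adjusted p = 0.0599). It was called in J1 alone (1.56, adjusted p = 0.00373), without E14 day 3 replicate 1 (1.47, adjusted p = 0.0126), and in 5 fits with other arrays, models or scaling (adjusted p 0.00103 with clone-by-day means to 0.0426 after renewed quantile normalization). Krt18, its partner, changed by 0.87 (SE 0.302, adjusted p = 0.0842). Pecam1 (−0.94, SE 0.297, adjusted p = 0.0552) and Flt1 (0.82, SE 0.202, adjusted p = 0.0129) had the largest changes of the blood and endothelial list.

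Of the pathway lists, Nodal (18 measured), Wnt (29), BMP (22) and the epithelial and mesenchymal switch (18) had 0 calls, where 1.2% of all genes were called. Foxh1, a Nodal cofactor, changed by 0.81 (SE 0.227) and Smad7, an inhibitor of TGF-beta signalling, by −0.75 (SE 0.173). Wnt8a changed by 0.97 (SE 0.343, adjusted p = 0.0929), by 1.81 in E14 and 0.12 in J1, and passed without J1 day 3 replicate 2 (1.22, adjusted p = 0.0447). The Wnt receptor gene Fzd5 changed by −0.86 (SE 0.151). Bmp4 changed by −0.56 (SE 0.227) and its antagonist Grem1 by −0.59 (SE 0.245). Snai2, a repressor of epithelial genes, changed by −0.99 (SE 0.288, adjusted p = 0.0373), and reached 2-fold without J1 day 0 replicate 2 (−1.13), with arrays centred on their medians (−1.01) and after renewed quantile normalization (−1.06). Cldn7, a tight junction gene, changed by 0.90 (SE 0.284, adjusted p = 0.0563).

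The Polycomb and Hox lists gave no call. None of 13 PRC2 genes, 17 PRC1 genes or 37 Hox genes was called, with medians of −0.25, −0.062 and 0.13. With 1.2% of all genes called, 0 calls do not set lists of this size apart. The largest changes of the PRC2 list were those of Eed (−0.95, SE 0.188, adjusted p = 0.00237), the gene labelled as knocked out, and Epop, an accessory gene (−0.56, SE 0.122). In the PRC1 list they were those of Kdm2b, a PRC1 subunit (0.66, SE 0.132), and Yaf2 (0.47, SE 0.147). The source of the Eed signal in the KO lines was not tested. Eed was called without E14 day 3 replicate 2 (−1.16), J1 day 3 replicate 2 (−1.01) or J1 day 0 replicate 2 (−1.01). It was also called in E14 alone (−1.09) and after renewed quantile normalization (−1.015). Hoxc8 changed by 0.58 (SE 0.257) and Hoxc9 by 0.57 (SE 0.2), the largest of the Hox genes, without overlap between days.

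Cell cycle and metabolic lists gave 1 call in all, where 1.2% of all genes were called. Proliferation genes (26 measured) had 0 calls and a median of −0.12, with Mycn at −0.45 (SE 0.195) and Ccne2 at −0.39 (SE 0.13). CDK inhibitors and p53 targets (15 measured) had 0 calls, with Cdkn1b at 0.51 (SE 0.0989), Pmaip1 at 0.44 (SE 0.17) and Cdkn2a at 0.05 (SE 0.184). Cholesterol synthesis (20), serine and one-carbon metabolism (20), interferon response (13), two-cell stage (6), ESC noncoding RNAs (4) and the proteasome control list (31, median −0.042) also had 0 calls. The 1 call among 26 hypoxia and glycolysis genes was Ddit4, an inhibitor of mTORC1, which read 10.67, 9.55, 8.76 and 10.49 on day 3, against 8.44, 8.21, 9.13 and 9.02 on day 0. The first J1 array of day 3 lay below both J1 arrays of day 0, and the rise of 1.17 (SE 0.351, adjusted p = 0.0437) was lost in 6 of 8 fits without 1 KO array (adjusted p up to 0.194).

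**Figure D5:**
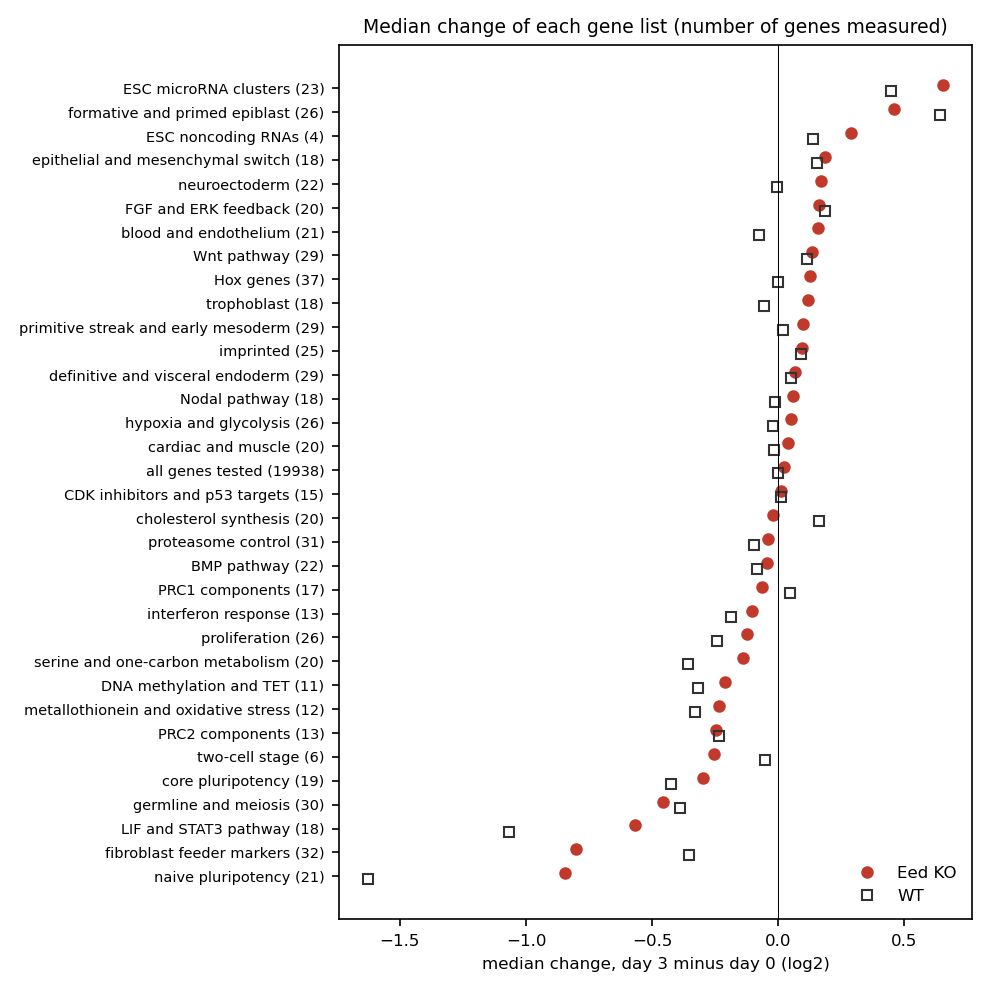
Median change from day 0 to day 3 (log2) of each of the 33 gene lists and of all genes, for Eed KO (red points) and WT (open squares), with the number of measured genes after each name. Naive pluripotency has the lowest median in KO (−0.85) and in WT (−1.63), and the ESC microRNA list the highest in KO (0.66).

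The WT lines passed through the same 3 days with 407 called genes, 2.04% of those tested, 190 rises (0.953%) and 217 falls (1.09%). Of the 239 KO calls, 236 had the same sign in WT, and 140 genes were called in the same direction in both genotypes, 58.6% of the KO calls and 34.4% of the WT calls. Changes in KO and WT correlated at r = 0.734 across genes, as a description. Socs3 changed by −2.15 in KO and −2.66 in WT, Klf4 by −1.86 in KO and −2.21 in WT, Fgf5 by 2.23 in KO and 2.72 in WT, and Prtg by 2.36 in KO and 2.1 in WT. None of these 4 differences passed a test of the difference itself (adjusted p 0.868 to 0.985).

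The naive list had the widest gap between the genotypes' list medians. In WT, 19 of the 21 members fell with a median of −1.63, against 7 and −0.85 in KO. Of all genes, 1.09% fell in WT and 0.617% in KO. The difference of the changes, KO minus WT, was above 0 for 20 of the 21 and for 10811 of all 19938 genes, and its median in the list was 0.83. The difference was called for 0 of the 21, and 14 passed an unadjusted p under 0.05 with KO higher, where 3.3% of all genes did. Zfp42 changed by −1.13 in KO and −2.70 in WT, a difference of 1.57 (SE 0.51, unadjusted p = 0.00525, adjusted p = 0.429). Its mean was 9.96 on day 3 in KO, against 7.71 in WT, and 11.09 on day 0 in KO, against 10.40 in WT. Nr0b1 differed by 1.66 (unadjusted p = 0.0029, adjusted p = 0.336) and Esrrb by 1.25 (unadjusted p = 0.00548, adjusted p = 0.433). Tbx3 differed by 0.05. In KO cells the naive list mean was 9.23 to 9.93 on day 3 and 9.79 to 10.15 on day 7, in an order of days that is described and not tested. The KO and WT clones share a line for J1 only. In J1 too, each genotype is 1 clone, so genotype and clone cannot be told apart in any line.

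The difference of the 2 changes was called for 14 genes, 0.0702% of those tested, 6 with KO higher (0.0301%) and 8 with KO lower (0.0401%), and 1235 genes (6.19%) had an unadjusted p under 0.05. The count was 5 to 9 without any 1 of 7 KO arrays, 10 without J1 day 0 replicate 2, and 0 with the arrays of a line and day averaged (1124 at an unadjusted p under 0.05). Khdc3, a component of the subcortical complex of oocytes, read 7.50, 7.26, 6.72 and 6.99 on day 3 in KO, against 9.40, 9.64, 8.67 and 8.93 on day 0, and averaged 6.71 on day 3 in WT, against 7.17 on day 0. It fell by 2.04 in KO (SE 0.142, adjusted p = 3.21e-08), to near the WT level, and the change in WT was −0.46 (difference −1.58, SE 0.2, adjusted p = 0.000874). Tex13b, a testis-expressed X-linked gene, fell by 1.28 in KO with a change of −0.03 in WT (difference −1.25, adjusted p = 0.0379). Tdrkh, a piRNA pathway gene, changed by −0.82 in KO and 0.62 in WT (difference −1.45, adjusted p = 0.0379). Meg3, a maternally expressed noncoding RNA, changed by −0.96 in KO and 0.80 in WT (difference −1.76, adjusted p = 0.0101). Its level was lower in KO on both days, with means of 7.07 on day 3 and 8.03 on day 0, against 11.03 and 10.23 in WT. Among KO day 0 arrays, Meg3 read higher in the array with the higher feeder list mean, by 0.415 in E14 and 0.732 in J1. The part of feeder RNA in this change was not tested.

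In 8 other called differences the change was larger in size in WT, and for Ltb and Atp1b2 it was larger in KO. Ntn1, the guidance cue netrin, changed by 0.23 in KO and fell by 1.35 in WT, Nrp2, a semaphorin receptor, changed by 0.20 in KO and fell by 1.45 in WT, and Ifitm1, an interferon-induced membrane protein, changed by 0.33 in KO and fell by 1.25 in WT. Krt17 changed by −0.22 in KO and fell by 1.76 in WT. Satb1, a chromatin organiser, changed by 0.41 in KO and rose by 1.54 in WT. Ltb, a lymphotoxin gene, rose by 1.06 in KO (SE 0.114, adjusted p = 5.36e-06) and changed by −0.10 in WT. The remaining called differences were Gna14 (1.14), Atp1b2 (−1.22, from changes of −0.79 in KO and 0.42 in WT), Golim4 (−1.15) and Ugt8a (−1.14).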

How the data were processed

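Total RNA of 24 samples was measured on Affymetrix Mouse Gene 1.0 ST arrays. Per the submitters' processing notes, the authors used RMA in Affymetrix Power Tools, and the deposited table holds 1 log2 value for each probe set and array (2.08 to 14.4, the base judged from this range). Versions and build: not given in the sources used here. RMA quantile-normalizes the arrays, which removes any change of total RNA, and compresses differences near background, so fold changes of weak signals are likely to be too small. Of 35556 probe sets, 21789 had 1 gene symbol in the platform annotation and were tested, 1621 had several and 12146 were not listed. For the 999 genes with several probe sets the one with the highest mean was used, which gave 19938 genes, with no filter on low values; 76 list genes had no match and are not analysed here.

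Changes came from limma 3.58.1 in R 4.3.3, fitted on all 24 arrays with clone and genotype by day as terms (16 residual degrees of freedom), and the difference between lines from 12 clone-by-day means (12 residual degrees of freedom). Adjusted p-values are Benjamini-Hochberg over all genes, and a call needs an adjusted p under 0.05 and a 2-fold change. SE is that of the model and SD is over 4 arrays. The fits were tested on simulated data. Alternatives were other models, array scalings, a minimum mean of 6, other probe set rules, single lines and leaving out each KO array. Precision is limited by the number of arrays.

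Named genes were the 12 largest rises and 12 largest falls with non-overlapping arrays within both lines, up to 5 called members of each of 33 lists or the 2 largest changes where none was called, the 8 largest differences each way, and a fixed set (Eed, Pou5f1, Nanog, Sox2, Zfp42, Klf2, Klf4, Esrrb, Tbx3, Nr0b1, Fgf5, Otx2, Dnmt3b, Mixl1, Cdkn2a); predicted genes were passed over. Other microRNA genes, Larp7 and the uncalled fibroblast markers were named after their values were seen. The groups and lists were chosen with earlier results of these data known, so none is independent support. RefSeq tables of GRCm38.p6 supplied gene names, promoters and microRNAs.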

Additional observations from a re-analysis of the deposited data

Results flagged for a closer look

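In groups of 4 arrays, an array was singled out when its gap to the next array, divided by the range of the group, passed Dixon's critical value of 0.829. This held for 6 of 226 groups of named genes, and chance singles out about 1 in 20 groups. Cav1 had a highest KO day 3 array of 7.45 (E14 replicate 2) and a lowest KO day 0 array of 8.95 (J1 replicate 2). Mir302c had a highest KO day 3 array of 6.98 (E14 replicate 2) and Hoxc8 one of 8.0 in the same sample. Hoxc9 had a lowest KO day 3 array of 7.25 (J1 replicate 2) and Krt17 a lowest KO day 0 array of 6.67 (J1 replicate 1).

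By the limma test of the difference itself, 14 genes changed unequally in KO and WT over these days. KO minus WT was 1.65 for Nrp2, 1.58 for Ntn1, 1.57 for Ifitm1, 1.54 for Krt17, 1.16 for Ltb and 1.14 for Gna14. It was −1.76 for Meg3, −1.58 for Khdc3, −1.45 for Tdrkh, −1.25 for Tex13b, −1.22 for Atp1b2, −1.15 for Golim4, −1.14 for Ugt8a and −1.13 for Satb1.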

How the results depend on the processing

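The count of 239 KO calls (116 rises, 123 falls) stayed within 1.5 times in the other models and scalings, except without the fold minimum (1546, with 756 and 790) and for the rises in J1 alone (68). Leaving out each KO array gave 213 to 278 calls, 83 to 129 rises and 101 to 149 falls. Averaging the arrays of a line and day gave 190 genes, 187 of them among the 239. Differences between arrays 1 and 2 correlated between day 3 and day 0 at r = −0.05 in KO E14, 0.47 in KO J1, −0.24 in WT J1 and 0.15 in WT V6.5. They were above 0.1 in 2 of 4 lines, and the numbers were not taken as pairs. With a replicate block of array number there were 238 calls, and with a replicate block of clone by number 239.

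The 14 differences between KO and WT were the least stable count. It was 32 with the 16 arrays of days 3 and 0, 25 without the WT J1 day 7 arrays (chosen after seeing the data), 23 without the fold minimum, 8 with E14 as the only KO line, 5 with J1 as the only one, 4 with the replicate block of clone by number, 0 with averaged arrays, and 5 to 10 without each KO array. The count of 0 differences between E14 and J1 was 7 with 16 arrays, 3 with the 8 KO arrays and 0 to 2 without each KO array. The cause was not tested.

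Of 52 named genes called in KO, 32 kept the call in every alternative and 0 changed sign, and 6 lost it with 1 line alone and in no other setting. Among genes that were not called, Pou5f1 turned to 0.0040 after renewed quantile normalization, 0.011 in E14 alone, 0.011 without J1 day 3 replicate 1 and 0.0068 without J1 day 0 replicate 2 (range without each KO array −0.072 to 0.011). Mycn turned to 0.054 in E14 alone, and Cdkn2a to −0.021 in E14 alone and −0.080 without J1 day 0 replicate 2 (range without each KO array −0.080 to 0.134). The distance of weak probe sets from background is unknown, which limits their fold changes.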

Other observations

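Genes of the X chromosome were 739 of the 19856 tested genes with a known chromosome (3.72%). They made up 14 of the 116 rises (12.1%) and 8 of the 123 falls (6.5%) in KO, and 20 of 190 rises (10.5%) and 10 of 216 falls (4.63%) in WT. The median change of all X-linked genes in KO was 0.043, against 0.025 over all genes. The KO rises include 4 hairpins of the Mir106a to Mir363 cluster, which lie side by side and are not independent. No test of these shares was made, and the members of a comparison are not replicates.

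Several KO rises lay near a day 0 level again on day 7, as group means of 4 arrays. Fgf5 averaged 8.04 on day 7, against 8.13 on day 0, after 10.35 on day 3, and Pim2 averaged 8.30 on day 7, against 8.84 on day 0, after 10.97 on day 3. Prtg averaged 9.90 on day 7 and Peg3 12.34, both above their day 0 means of 7.90 and 9.67. These are values of named genes without a test.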
